A study of Mus musculus with 23 samples.

Results

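The transcripts described here are the products of 42 mouse genes known for expression at the 2-cell stage, found by symbol among the 56196 genes of the embryo and oocyte count tables. They comprise the Zscan4 family (6 genes), the Usp17l family (5), the Tdpoz family (5), the Trim43 family (3), the Tcstv pair, the Pramel pair (Pramel6 and Pramel7) and 19 further genes, most of them predicted genes with a numbered symbol. Each of the 42 symbols was found once in each table. The genes are clustered in the genome: on mm10 the Zscan4 genes lie on chromosome 7 between 10794242 and 11402318, the Trim43 genes on chromosome 9 between 88580891 and 89092835, the Tdpoz genes on chromosome 3 between 93651542 and 93961314, and 8 of the predicted genes (BB287469, Gm2016, Gm2022, Gm4027, Gm5039, Gm5662, Gm8300 and Gm21319) on chromosome 12 between 87514316 and 88324026.

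The mouse embryo begins life on RNA stored by the oocyte and switches to its own transcription in a minor wave in the zygote and a major wave at the 2-cell stage. The major wave includes a set of rodent multicopy genes that are silent in most other cells, among them the Zscan4 genes, and many of these genes are direct targets of the homeodomain factor DUX or of OBOX homeodomain factors. Rare embryonic stem cells that pass through a 2-cell-like state switch on many of the same genes.

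The study compared samples labelled WT with samples labelled Eif4enif1+/- (het), heterozygous at the gene for 4E-T, a partner of the cap-binding protein eIF4E found in P-bodies. Poly(A) RNA was sequenced from 5 embryo groups of 3 libraries: WT and het 1-cell embryos that received no treatment, WT and het 2-cell embryos cultured in vitro for 24 h, and het embryos that were still at 1 cell after 24 h of culture (arrested). Fully grown germinal vesicle (GV) oocytes of both genotypes, also untreated, gave 2 transcriptome (total mRNA) and 2 translatome (ribosome-bound mRNA) libraries each. For embryos the labels leave unstated whether the genotype is the embryo's or its mother's, and they give no strain, age, number of embryos per library or nature of the mutant allele. The 2-cell stage and the 24 h of culture cannot be told apart in a comparison with the 1-cell groups, and there was no arrested WT group. In bulk libraries such as these, fewer cells with a transcript and less RNA per cell cannot be told apart.

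Promoter sequences of the genes the results turn on are shown first, because members of this set rise together and several share letters upstream of their start. The RefSeq table (GRCm38.p6) held promoters, from 250 bases before to 50 bases after the start, for 23 of the 42 genes. The 250 bases before the start of 5 of them are printed 5′ to 3′, all on the + strand: Zscan4c (chr7:11005495-11005744), Zscan4f (chr7:11397665-11397914), BB287469 of the chromosome 12 cluster (chr12:87816327-87816576), AF067061, a gene near Tcstv3 (chr13:120262845-120263094), and Pramel6 (chr2:87506315-87506564). Capitals mark these letters on either strand: TATAAA, the core promoter box, then TGATTNAAT, the core of the DUX motif, and lastly GGATTA, which OBOX-type homeodomains bind.
Zscan4c: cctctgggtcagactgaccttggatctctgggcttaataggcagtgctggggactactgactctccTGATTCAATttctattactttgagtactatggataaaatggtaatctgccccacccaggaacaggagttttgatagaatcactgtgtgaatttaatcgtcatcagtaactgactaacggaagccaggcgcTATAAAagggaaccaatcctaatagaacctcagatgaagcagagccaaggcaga
Zscan4f: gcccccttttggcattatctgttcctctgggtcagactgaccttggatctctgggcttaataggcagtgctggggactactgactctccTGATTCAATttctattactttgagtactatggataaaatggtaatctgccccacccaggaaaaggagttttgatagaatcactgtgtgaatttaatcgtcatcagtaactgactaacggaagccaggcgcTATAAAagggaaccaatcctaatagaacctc
BB287469: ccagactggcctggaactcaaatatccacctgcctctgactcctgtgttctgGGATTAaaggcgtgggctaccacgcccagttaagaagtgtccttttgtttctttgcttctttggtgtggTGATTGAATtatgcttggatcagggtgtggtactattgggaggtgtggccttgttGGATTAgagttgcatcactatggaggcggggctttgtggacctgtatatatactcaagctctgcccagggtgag
AF067061: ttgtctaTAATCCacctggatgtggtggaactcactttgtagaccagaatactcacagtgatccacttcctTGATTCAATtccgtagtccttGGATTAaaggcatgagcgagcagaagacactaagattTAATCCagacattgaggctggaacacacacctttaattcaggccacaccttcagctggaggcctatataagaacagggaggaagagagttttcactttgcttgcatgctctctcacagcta
Pramel6: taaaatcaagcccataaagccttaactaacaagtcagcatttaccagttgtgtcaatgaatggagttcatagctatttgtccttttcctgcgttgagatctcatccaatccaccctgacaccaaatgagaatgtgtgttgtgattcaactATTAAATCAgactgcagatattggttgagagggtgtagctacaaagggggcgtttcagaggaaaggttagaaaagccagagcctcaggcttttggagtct

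TGATTNAAT was found in the promoters of 9 of the 23 genes with a sequence (Zscan4b, Zscan4c, Zscan4f, Gm4027, Gm21319, BB287469, Gm21761, AF067061 and Pramel6) and in 0.718% of all 32851 promoters of 300 bases. It began at position -184 before the start of Zscan4c, -161 of Zscan4f, -129 of BB287469, -179 of AF067061 and -100 of Pramel6. GGATTA was found in 10 of the 23 and in 7.06% of all promoters, with 9 copies in the promoter of Zfp352, a zinc finger gene. TATAAA was found in 8 of the 23, in the Zscan4 and Usp17l families and Ddit4l, against 13.6% of all promoters. It began at -31 in Zscan4b, Zscan4f and Usp17lb, at -54 in Zscan4c and at -65 in Zscan4d. In Usp17lc and Usp17ld it lay further upstream, at -88 and -110, and in Ddit4l it lay after the start, at 36. The other strings searched on both strands were TATATA (6 of the 23 against 5.67%), GATTNAATC, which can overlap TGATTNAAT (3 against 0.268%), the CCAAT box (15 against 37.4%), AGGTCA (5 against 16.3%), CACCC (17 against 57.5%), TGACGTCA (0 against 1.79%) and TGCACAC (0 against 4.40%). These promoters are not independent of one another: the Zscan4b and Zscan4f promoters were 95.7% identical, those of Gm21761 and AF067061 89.7%, and those of Zscan4c and Zscan4f 85.1%. A match is a run of letters, and binding was not measured.

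Levels are given in CPM: the reads of a gene divided by the TMM-scaled total of its library, in M. Total counts ranged from 5.60 M to 40.4 M in the embryo libraries and from 3.62 M to 50.5 M in the GV libraries. Eif4enif1 itself was at 134, 148 and 178 CPM in WT 1-cell embryos against 72.1, 69.9 and 69.2 in het 1-cell embryos, and at 74.4, 55.3 and 76.3 against 54.9, 38.2 and 42.9 at the 2-cell stage. The genotypes thus did not overlap at either stage, though at the 2-cell stage only by 55.3 against 54.9 CPM. It did not pass the test described below, in which no gene was called lower in het embryos at either stage. In arrested embryos Eif4enif1 was at 109.6, 28.5 and 62.7 CPM. Some libraries stood apart. Het 1-cell libraries 1 and 3 held 6.34% and 5.53% of their counts in their 100 most abundant genes, against 29.0% to 53.1% in the other 13 embryo libraries, and their summed level of 22 maternal oocyte transcripts was 3462 and 2784 CPM against 31406 in het 1-cell library 2 and 26199.5 to 30778 in WT 1-cell embryos. Arrested library 1 had a maternal sum of 33217 CPM, near that of the WT 1-cell libraries, against 11223 and 18521 in arrested libraries 2 and 3 and 3665 to 8373 in the 2-cell libraries. The 11 oocyte and egg markers among these 22 were lower there, however, at 7332 CPM in sum against 13030 to 15432 in WT 1-cell embryos.

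Many of these genes are near copies of one another, and the sources used here do not give how reads that fit several places were counted. Of the 50-base windows in each gene's exons, a median of 46.6% over the 42 genes also occurred in another gene, and for 17 genes more than 50% did. For Gm4340, Gm6763, Gm2022, Gm4027, BB287469, Tdpoz5 and Zscan4b the share was 90.1% to 100%, so their separate values are uncertain. The closest copy of Tdpoz5 (Gm10697) and that of Gm4340 and Gm6763 (Gm20765) are outside the 42. The same held for the other Tdpoz genes, Zscan4c and Zscan4f (Zscan4-ps2), the Tcstv pair (Gm21818) and Gm21761 (Gm20767), among others. Sums over a family do not cover these copies. For Pramel6, Pramel7, Ddit4l and Tmem92 the share was 0% to 1.93%, so those genes could be counted on their own.

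In WT embryos, 38 of the 42 genes were higher at the 2-cell stage than at the 1-cell stage, against 28.5% of all 23656 genes tested, and 1 was lower, against 17.9% (edgeR quasi-likelihood test, Benjamini-Hochberg adjusted p under 0.05). The median log2 difference over the 42 was 7.87, or 7.13 with the 9 genes that had no count in WT 1-cell embryos placed at their lower bound, against 0.59 for all genes. In het embryos 39 of the 42 were higher, against 22.8% of all genes, and none was lower. The median difference there was 7.19, or 6.95 with bounds, against 0.36 for all genes. All 42 were detected in each of the 6 libraries of 2-cell embryos, and 23 to 30 of them in the 1-cell libraries. Of the 42, 19 would have passed the expression filter on the 1-cell libraries alone, and of these 15 rose in WT, 1 fell and 3 did not pass the test. The other 23 passed only through the later groups in which they are high, so their calls add little. Summed over the 42 genes, the level went from 439.9 to 646 CPM in WT 1-cell embryos to between 6595 and 7471 in WT 2-cell embryos, and from between 314 and 619 to between 6725 and 12467 in het embryos.

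**Figure D1:**
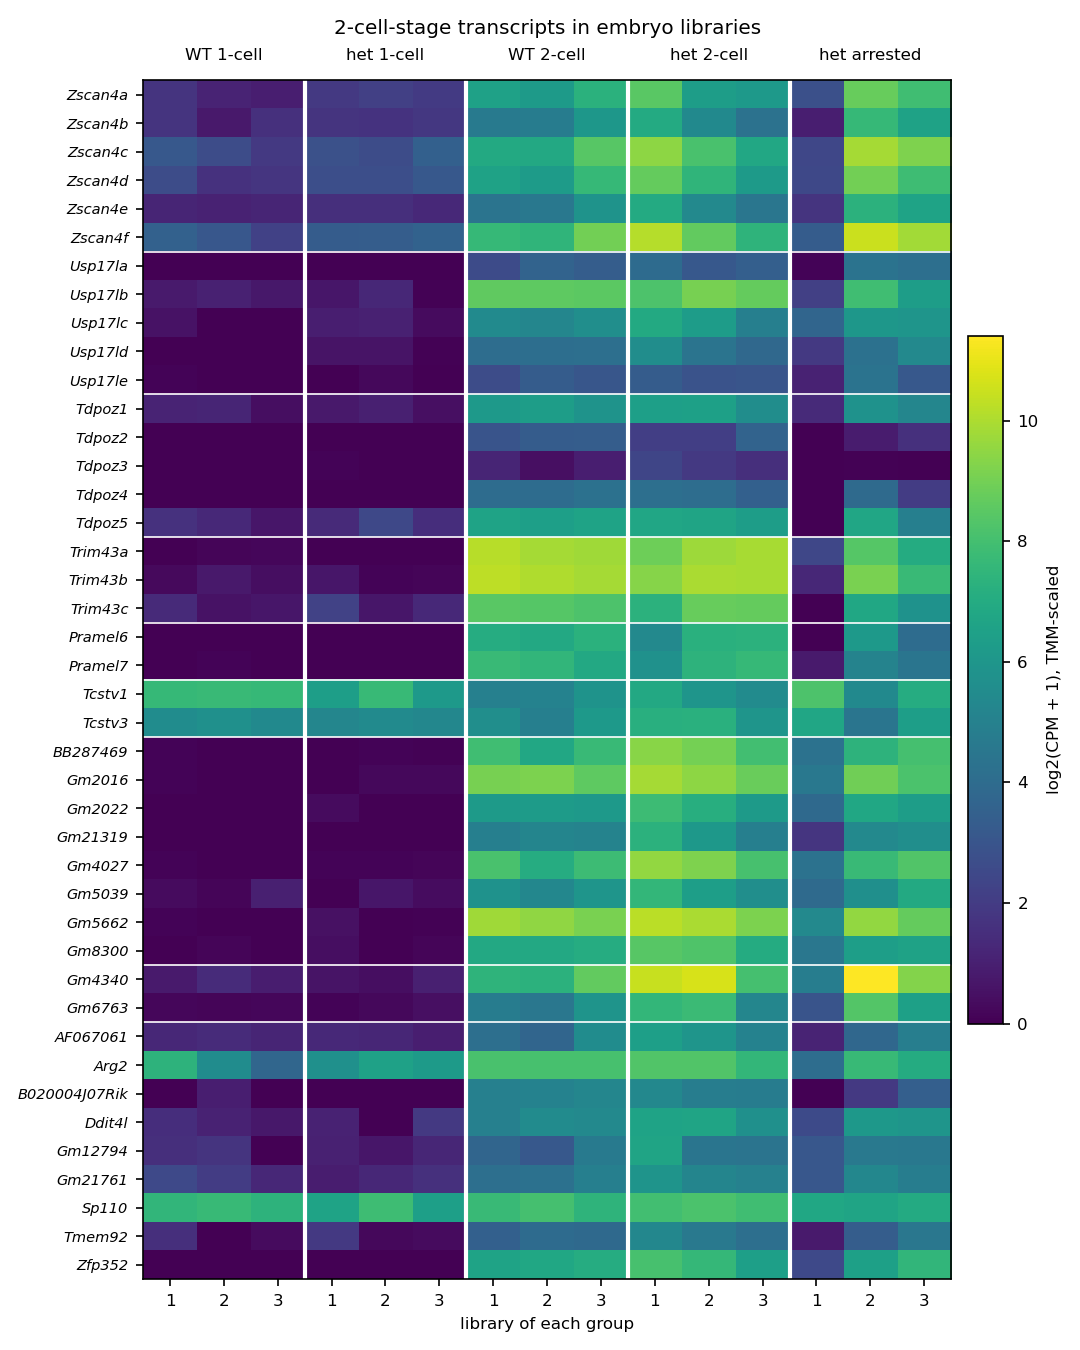
Level of each of the 42 genes (rows, grouped by family) in each of the 15 embryo libraries (columns), as colour on a log2(CPM + 1) scale. Both 2-cell groups and arrested libraries 2 and 3 are filled, while the 6 libraries of 1-cell embryos are at or near 0 for most genes and arrested library 1 is far lower than arrested libraries 2 and 3, with Sp110, Arg2, Tcstv1 and Tcstv3 present throughout.

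The Zscan4 genes encode nuclear proteins with a SCAN domain and zinc fingers that act on telomeres and genome stability in 2-cell embryos and stem cells. Zscan4f was at 10.8, 7.57 and 3.55 CPM in WT 1-cell embryos and at 8.84, 9.32 and 10.8 in het 1-cell embryos. It was at 201, 175 and 502 CPM in WT 2-cell embryos and at 1111, 403 and 172 in het 2-cell embryos. Every 2-cell library was thus above every 1-cell library, with a wide spread inside both 2-cell groups and overlap between the genotypes. The log2 rise was 5.32 (SE 1.23, adjusted p = 0.0032) in WT and 5.86 in het embryos, and Zscan4c rose by 5.23 in WT. The 6 genes together stood at 12.8 to 29.8 CPM in WT 1-cell embryos and 27.5 to 35.8 in het 1-cell embryos, so this family was present before the 2-cell stage. Their sum was 551, 492 and 1323 CPM in WT 2-cell embryos and 2851, 1023 and 466 in het 2-cell embryos.

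Usp17l genes encode ubiquitin-specific proteases, and Trim43 genes encode tripartite-motif proteins of a family with many ubiquitin ligases. Usp17lb was at 0.668 to 1.09 CPM in WT 1-cell embryos and at 389, 376 and 375 in WT 2-cell embryos, a log2 rise of 8.82 (SE 1.28, adjusted p = 0.0002). Usp17lc, at 43.3, 36.6 and 48.3 CPM in WT 2-cell embryos, rose by 8.11. The 3 WT 2-cell libraries lay close together for these proteases, at 449.9 to 459 CPM over the family. Trim43b was at 0.206 to 0.706 CPM in WT 1-cell embryos and at 1228, 1055 and 939 in WT 2-cell embryos. Trim43a was at 0 to 0.154 and then at 1145, 931 and 887 CPM. Both were among the most abundant of the 42 genes at the 2-cell stage, and their log2 rises were 11.29 (SE 1.62) and 13.20 (SE 1.58).

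Pramel6 and Pramel7 belong to the PRAME-like leucine-rich repeat proteins, several of which are receptors of cullin ubiquitin ligases, and Pramel7 is known to lower DNA methylation in the early embryo. Neither had more than 0.0642 CPM in any 1-cell library. Pramel7 was at 213, 182 and 115 CPM in WT 2-cell embryos and 53.8, 165 and 198 in het 2-cell embryos. Pramel6 was at 133, 117 and 153 CPM and at 40.8, 150.2 and 160.5, so het 2-cell library 1 was the lowest library for both genes. Pramel6 had no count in WT 1-cell embryos, so its level in WT 2-cell embryos was at least 2284-fold higher (taking 3 counts over the 1-cell group as the floor). Pramel7 had 1 count there, a ratio of 8094 with a 95% counting interval of 1453 to 319705. Intervals and floors cover counting error only.

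Tdpoz proteins carry a TRAF domain and a POZ domain. Tdpoz5 was at 0.617 to 2.12 CPM in WT 1-cell embryos and at 97.6, 84.6 and 95.9 in WT 2-cell embryos, a log2 rise of 6.05 (SE 1.36, adjusted p = 0.0027), and Tdpoz1 rose by 6.23 to 71.4, 81.7 and 57.4 CPM. Tdpoz3 was the lowest of the 42 genes at the 2-cell stage, at 1.27, 0.396 and 0.942 CPM in WT.

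The predicted genes of the chromosome 12 cluster, which resemble the translation initiation factor eIF1A, went from 0.257 to 0.977 CPM in sum in WT 1-cell embryos to 2207, 1825 and 1669 CPM in WT 2-cell embryos. Gm5662 was at 873, 739 and 552 CPM in WT 2-cell embryos against 1 count in the 3 WT 1-cell libraries, and Gm2016 at 544, 572 and 387 against 1 count. Gm4027 was at 276, 131 and 225 CPM and BB287469 at 237, 115 and 209. Each of the 4 genes was at or near 0 in every 1-cell library and separated from it completely at the 2-cell stage. The pair on chromosome 10 (104151497 to 104196522), Gm4340 and Gm6763, share nearly all their sequence. Gm4340 was at 0.754 to 1.67 CPM in WT 1-cell embryos and at 172, 161 and 408 in WT 2-cell embryos, a log2 rise of 7.81 (SE 1.35, adjusted p = 0.0005). Per kb of exon, Gm4340 had the highest mean level over the 6 libraries of 2-cell embryos (518 CPM per kb), ahead of Gm5662 (445), Trim43a (441) and Trim43b (429), but its libraries ranged from 161 to 1670.5 CPM, so this order does not exceed the spread.

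Zfp352, a zinc finger gene, had no count in any of the 6 libraries of 1-cell embryos and stood at 98.5, 109 and 132 CPM in WT 2-cell embryos, at least 1914-fold higher. Ddit4l, an inhibitor of the growth kinase complex mTORC1, rose by 4.97 (SE 1.05, adjusted p = 0.0018) from between 0.668 and 1.85 CPM to 30.6, 44.0 and 40.0.

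Tcstv1, Tcstv3, Sp110 and Arg2 did not follow the others, and all of them were already at 12.6 CPM or more in every 1-cell library. Tcstv1, named for variable expression at the 2-cell stage, was at 201, 211 and 202 CPM in WT 1-cell embryos and at 30.3, 32.3 and 58.0 in WT 2-cell embryos. It was the gene that fell, by 2.35 on the log2 scale (SE 0.64, adjusted p = 0.0088), with no overlap between the stages. In het embryos it was at 82.0, 206 and 68.5 CPM at the 1-cell stage and 118, 61.6 and 44.0 at the 2-cell stage, a difference of -0.67 (adjusted p = 0.401). The 2 low 1-cell values came from libraries 1 and 3, which stood apart as described above, and their part in this result was not tested. Its neighbour Tcstv3 was at 46.1, 51.4 and 41.8 CPM and then 49.4, 29.4 and 69.8 in WT (log2 difference 0.09, SE 0.52, adjusted p = 0.897), but at 36.3, 43.3 and 38.4 and then 145, 148 and 60.2 in het embryos, where it rose by 1.58 (SE 0.53, adjusted p = 0.030). That call was lost without any 1 of the het 1-cell libraries and without het 2-cell library 1 or 2 (adjusted p of 0.0688 to 0.0925), and with library totals in place of TMM the difference was 0.75 (adjusted p = 0.272). Adjusted p over all settings tried ranged from 0.0051 to 0.393. Sp110, a nuclear body protein, was at 183, 204 and 163 CPM and then 209, 265 and 169.5 in WT (difference 0.23, SE 0.40, adjusted p = 0.656). Arg2, the mitochondrial arginase, was at 166, 45.5 and 12.6 CPM in WT 1-cell embryos, a wide spread, and at 280.0, 268 and 268 in WT 2-cell embryos (difference 1.86, SE 0.81, adjusted p = 0.0714).

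**Figure D2:**
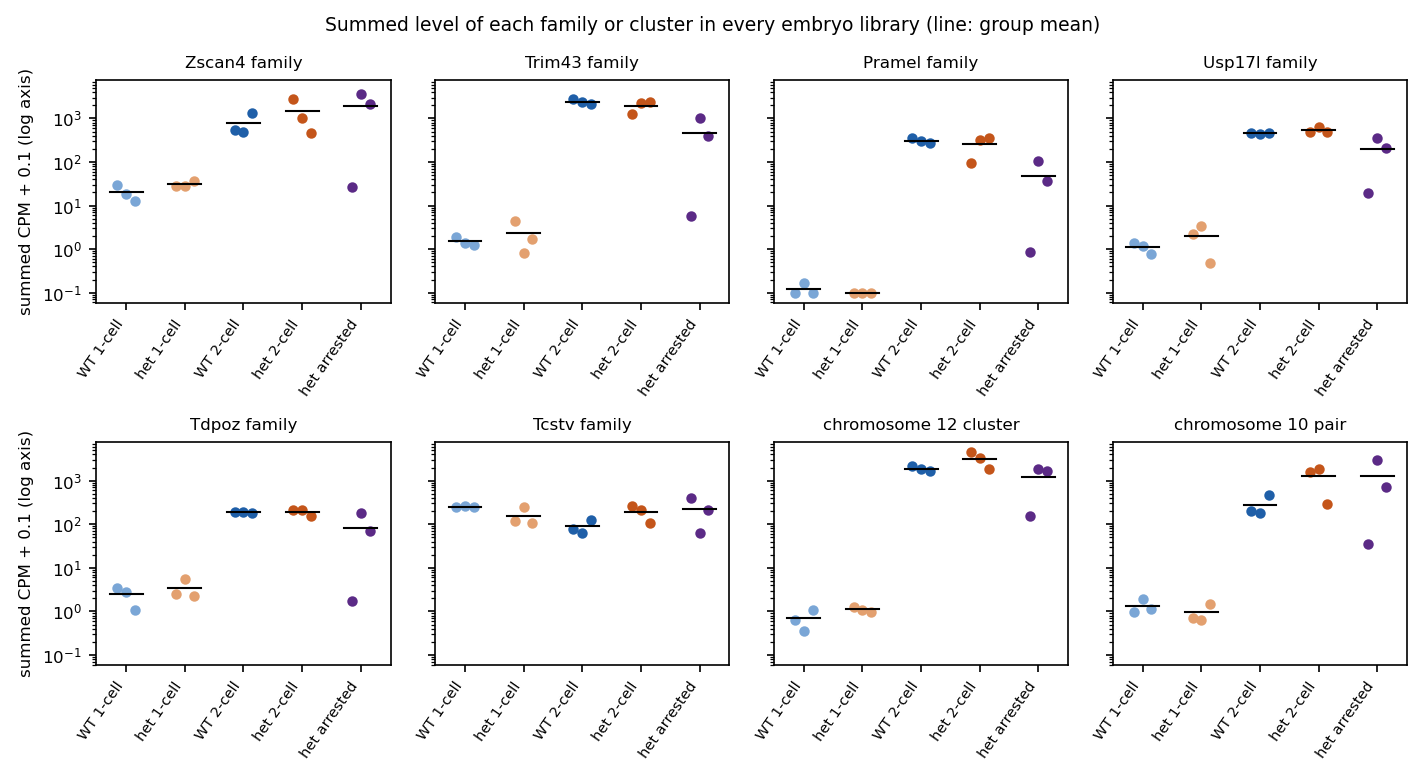
Summed CPM of the 6 gene families, the chromosome 12 cluster and the chromosome 10 pair (panels, log axis with a small constant added) in each embryo library (points) of the 5 groups, with a line at each group mean. The Tcstv pair stands at 61.7 to 402 CPM in every group, while the other panels rise from the 1-cell to the 2-cell groups and arrested library 1 lies far below arrested libraries 2 and 3.

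Between genotypes no gene of the 42 passed the test at either stage. At the 1-cell stage 0 of 42 were called (0% of all genes), with 1 of the 42 and 889 of all genes at an unadjusted p under 0.05. At the 2-cell stage 0 of 42 were called (0.00423% of all genes, 1 gene), with 2 of the 42 and 1318 of all genes at an unadjusted p under 0.05. DESeq2 called 0 of 42 in both comparisons. At the 2-cell stage 35 of the 42 differences were positive, that is, higher in het embryos, with a median of 0.79 against 0.02 for all genes. Genes in a cluster share reads and promoter sequence, so the 35 are not separate observations.

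The spread of the 3 het libraries is visible in each of the larger differences. Gm4340 was at 1376, 1670.5 and 261 CPM in het 2-cell embryos against 172, 161 and 408 in WT (log2 difference 2.16, SE 1.04, adjusted p = 0.913). Het libraries 1 and 2 were above all WT libraries and library 3 lay inside the WT range. Gm6763, its near copy, differed by 2.01 (SE 0.91, unadjusted p = 0.043, adjusted p = 0.869). Tcstv3 differed by 1.25 (SE 0.52, unadjusted p = 0.031, adjusted p = 0.843). BB287469, at 659, 524 and 244 CPM against 237, 115 and 209, was 1 of 5 genes of the 42 whose genotypes did not overlap at the 2-cell stage (difference 1.35, SE 0.70, adjusted p = 0.970), the others being Tdpoz3, Ddit4l, Tmem92 and Gm21761. All 5 were higher in het embryos, and 5.64% of all genes tested were higher without overlap in the same way. Zscan4f differed by 0.94 (SE 1.03), Trim43a by -0.37 and Pramel7 by -0.30, with overlap in each case.

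The rise from the 1-cell to the 2-cell stage was compared between genotypes as an interaction, and 0 of 42 genes were called (0.00423% of all genes), with 2 of the 42 and 1049 of all genes at an unadjusted p under 0.05 and 0 of 42 by DESeq2. Those 2 were Usp17ld (difference of the log2 changes -5.14, unadjusted p = 0.019) and Gm21761 (2.03, unadjusted p = 0.030). Usp17ld was also the gene with the small unadjusted p at the 1-cell stage, where it had no count in WT and 0.530, 0.538 and 0.0634 CPM in het embryos, at least 5.62-fold higher.

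The families did not move together from one 2-cell library to the next. In het library 1 the Zscan4 sum was the highest of the 6 libraries (2851 CPM) and the Trim43 and Pramel sums were the lowest (1275 and 94.7 CPM). In het library 3 the Zscan4 sum was the lowest (466 CPM), with Trim43 at 2358 and Pramel at 358 CPM. The number of Zscan4 reads per Trim43 read, a measure chosen after its values were seen and not tested, was 0.202, 0.212 and 0.624 in WT 2-cell embryos and 2.24, 0.451 and 0.198 in het 2-cell embryos. It was 4.74, 3.68 and 5.53 in arrested embryos, above all 6 libraries of 2-cell embryos. In 1-cell embryos the ratio was 6.35 to 38.8, but on 8 to 49 Trim43 reads a library.

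Arrested het embryos held most of these transcripts although they had not divided. Relative to WT 1-cell embryos, 35 of the 42 genes were higher (14.1% of all genes) and none was lower, with a median log2 difference of 7.12, or 6.98 with bounds, against 0.46 for all genes. Relative to het 1-cell embryos, 36 were higher (9.97% of all genes) and none was lower, with a median of 6.78, or 6.18 with bounds, against 0.28. Both comparisons use the same arrested libraries. Both also count the 23 genes that passed the expression filter only through the later groups, so the calls of those genes add little. Fitted on the compared groups alone, 19 of the 42 were called against WT 1-cell embryos (579 of all 16065 genes in that fit) and 0 against het 1-cell embryos (0 of all 17310). The second comparison also rests on het 1-cell libraries 1 and 3. Without them 7 of the 42 were called, and of all 28070 genes then tested 104 were called, 19 of them higher, against 3283 of 23656 with them. In arrested libraries 2 and 3 both, 37 of the 42 were above every WT 1-cell library, against 31.7% of all genes, and in library 1 27 were, against 25.5%. Without arrested library 1, 37 of the 42 genes were called in each of the 2 comparisons. Calls over all genes rose as well, to 7477 of 25746 against WT and 5938 of 25746 against het 1-cell embryos. With that library they were 4624 and 3283 of 23656.

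**Figure D3:**
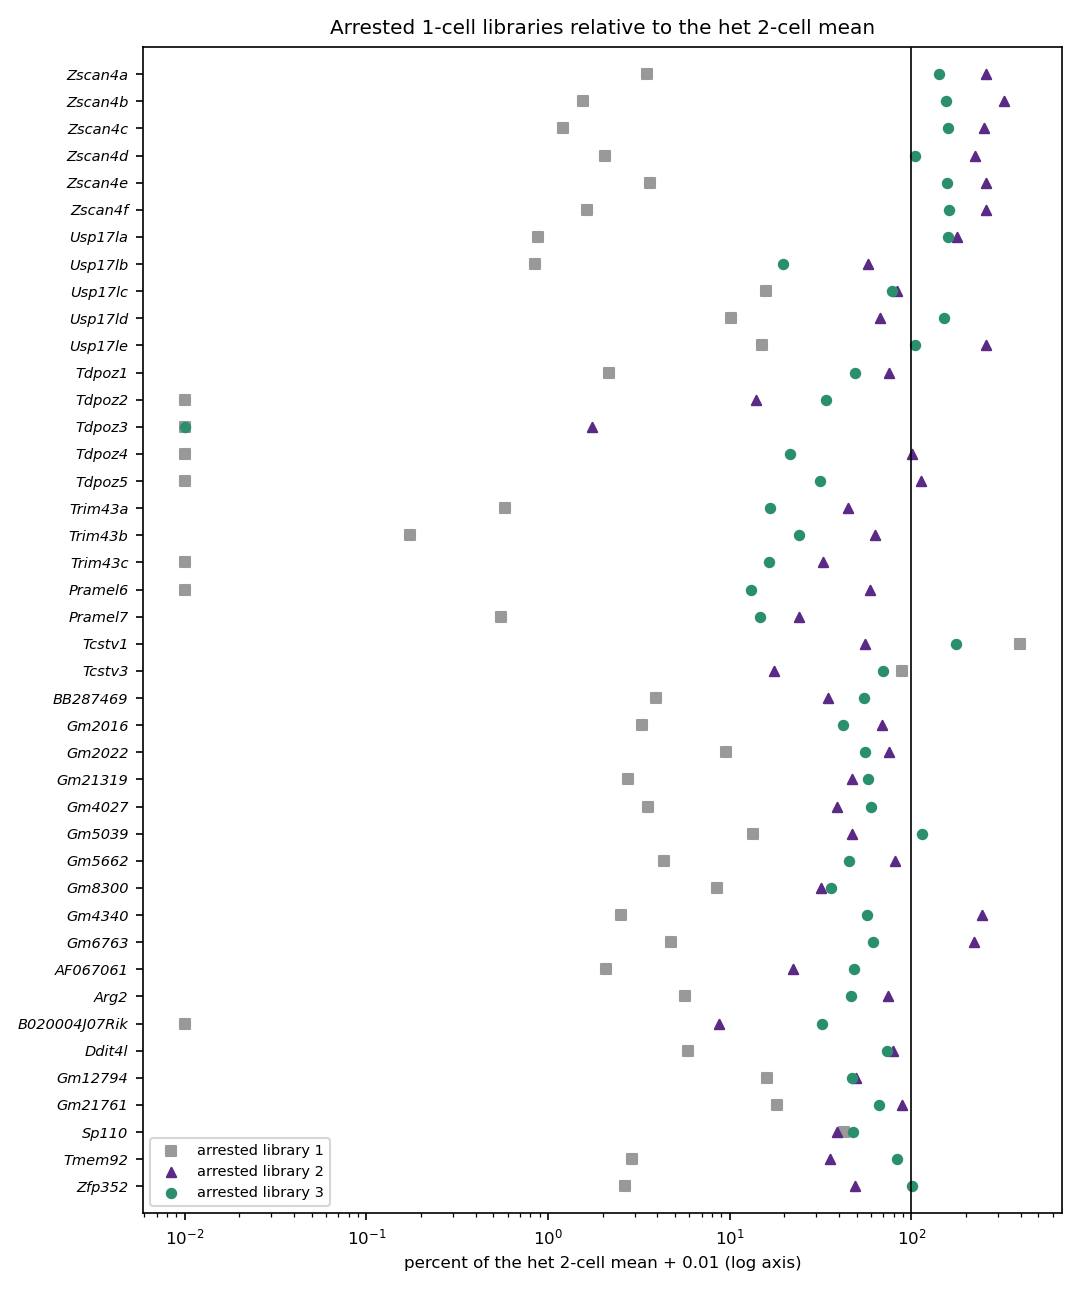
Level of each of the 42 genes in each arrested library as a percentage of its mean in het 2-cell embryos (log axis with a small constant added), with genes grouped by family and a vertical line at the het 2-cell mean. Library 1 has a median of 2.82%, and libraries 2 and 3 have medians of 65% and 56.2%, with the 6 Zscan4 genes of both above the line and the Trim43 and Pramel genes below it.

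Arrested library 1 stood apart from the other 2 throughout. Its levels had a median of 2.82% of the het 2-cell mean, with a range of 0% to 398%, whereas libraries 2 and 3 had medians of 65% and 56.2%. Summed over the 42 genes, the 3 libraries were at 798, 10839.7 and 6039.8 CPM. Trim43b was at 1.41, 547 and 209 CPM, Usp17lb at 3.48, 239 and 81.7, and Zscan4f at 9.14, 1445 and 909. In each of these genes library 1 was far below the other 2. The Tcstv pair showed the reverse order, with 402 CPM in library 1 and 61.9 and 214 in libraries 2 and 3. Library 1 did hold reads of the chromosome 12 cluster, at 153 CPM in sum against at most 1.15 in any 1-cell library, with Gm5662 at 39.7 and Gm2016 at 23 CPM. The chromosome 10 pair was at 34.5 CPM there against at most 1.80 in any 1-cell library, and the Usp17l sum at 19.6 against at most 3.23.

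Relative to het 2-cell embryos, 1 of the 42 genes was lower in arrested embryos (4.55% of all genes) and 0 were higher (3.85% of all genes). At an unadjusted p under 0.05 there were 10 of the 42 and 6523 of all 23656 genes. DESeq2 called 5 of the 42 lower, and of all 23416 genes in that fit it called 4988, 2054 of them higher. The median difference was -1.20 against -0.01 for all genes, with 32 of the 42 negative. The gene called was Tdpoz3, at 4.23, 2.76 and 1.92 CPM in het 2-cell embryos against 0, 0.0515 and 0 in arrested embryos (adjusted p = 0.0280). With 1 count in the arrested group, its level in het 2-cell embryos was 127 times higher, with a 95% counting interval of 22.9 to 5032. The call was lost with library totals in place of TMM (adjusted p = 0.058), in a fit on these groups alone (0.259), with the replicate number as a block (0.0548) and without het 2-cell library 2 or 3 or arrested library 1 or 3 (adjusted p of 0.0506 to 0.0879). Adjusted p over all settings tried ranged from 0.00036 to 0.259.

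The levels in arrested libraries 2 and 3 are given by family relative to het 2-cell embryos, and differences between families were not tested. Each of the 6 Zscan4 genes was above its het 2-cell mean in both libraries, at 225% to 323% of it in library 2 and 105% to 162% in library 3. For the family in sum, arrested libraries 2 and 3 were at 3667 and 2161 CPM against 2851, 1023 and 466 in het 2-cell embryos (log2 difference over all 3 arrested libraries 0.43, SE 1.01, adjusted p = 0.834), so library 3 lay inside the het 2-cell range. Gm4340 was at 2715 and 626 CPM in these libraries and its difference was 0.03 (adjusted p = 0.996). All 3 Trim43 genes were below the het 2-cell range in each arrested library, at 997 and 391 CPM in sum in libraries 2 and 3 against 1275, 2267 and 2358, a difference of -2.08 that did not pass (SE 1.03, adjusted p = 0.202). Pramel7 was at 0.753, 33.6 and 20.3 CPM in arrested embryos, below all het 2-cell libraries (difference -2.93, SE 0.91, adjusted p = 0.062). It passed in 5 of the other settings (adjusted p of 0.012 to 0.040), among them the fit without arrested library 1 (-2.42, adjusted p = 0.040), and failed in the rest. Adjusted p for Pramel7 over all 13 settings ranged from 0.012 to 0.310. Sp110 was at 111, 101 and 124 CPM against 249.7, 291 and 238 (difference -1.21, SE 0.40, adjusted p = 0.071). In all, 11 of the 42 genes did not overlap between arrested and het 2-cell embryos, each of them lower in arrested embryos: the 3 Trim43 genes, Usp17lb, Tdpoz2, Tdpoz3, Pramel7, Sp110, Gm8300, AF067061 and B020004J07Rik, a gene named Pramel17 in RefSeq. Of all genes tested, 15.6% were lower without overlap in the same way. Usp17la was the gene above the het 2-cell range in both arrested libraries 2 and 3 (19.4 and 17.2 CPM against 14.6, 7.86 and 10.1).

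Other genes of the pathway were described from lists of inducers, repressors, further activated transcripts, transcription machinery and maternal RNAs. Their counts stand beside the shares of all genes called in the same comparison: 28.5% higher and 17.9% lower in the WT rise, 3.85% and 4.55% in arrested relative to het 2-cell embryos, and 14.1% and 5.44% in arrested relative to WT 1-cell embryos. The calls in arrested relative to het 2-cell embryos rest on het 2-cell libraries 2 and 3: all genes together had 1986 calls, but 4 without het 2-cell library 2, 2 without het 2-cell library 3 and 0 in a fit on these groups alone. None of the list genes named for that comparison was called in any of these 3 fits. Of 15 inducers and co-activators of the 2-cell programme, 4 rose and 5 fell from the WT 1-cell to the WT 2-cell stage. Dppa4, a chromatin protein upstream of DUX, rose by 8.46 (SE 1.15, adjusted p = 0.00014) to 593, 538 and 443 CPM, its partner Dppa2 rose by 3.01, and the nuclear receptor Nr5a2 rose by 2.30. The maternal homeobox gene Obox7 fell by 4.81 and Obox1 fell by 6.06. In arrested relative to het 2-cell embryos 4 of the 15 were higher, among them Obox7 (4.13, adjusted p = 0.011) and Obox1 (4.59, adjusted p = 0.043), and 1 was lower, with 0 called in either direction without het 2-cell library 2, without library 3 or on these groups alone. Dppa4 was at 2.83, 159.9 and 65.9 CPM in arrested embryos. Relative to WT 1-cell embryos it was higher by 5.68 (SE 1.02, adjusted p = 0.0029). Duxf3, the gene for DUX, was chosen after its values were seen. It was at 0.659, 4.79 and 7.34 CPM in arrested embryos against 1.72, 1.26 and 0.859 in het 2-cell embryos, so libraries 2 and 3 were above all 2-cell libraries, and the difference from het 2-cell embryos was 1.73 (SE 1.11, adjusted p = 0.337).

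Of 24 other transcripts of genome activation, 21 rose in WT embryos and none fell, with Rfpl4b, Kdm5b (a histone demethylase), Eif1a and Gm2035 among them. These 24 were chosen as transcripts of genome activation, so a rise is built into the choice. The list also holds Gm20767, the closest copy of Gm21761, with 63.2% of its windows. How many of the 24 passed the expression filter only through the later groups was not tested. The counts for this list are therefore not a separate result. Kdm5b rose by 4.43 (SE 0.62) and Eif1a by 7.21 (SE 1.07). In arrested embryos 16 of the 24 were higher than in WT 1-cell embryos and 1 was lower, and relative to het 2-cell embryos 1 was lower, D5Ertd577e (-3.41, SE 0.52, adjusted p = 0.0094). Of 25 genes of the RNA polymerase II machinery 12 rose and 2 fell in WT, among them Cdk9, the elongation kinase (4.48), and Polr2e, a shared polymerase subunit (3.68). In arrested relative to het 2-cell embryos 10 of the 25 were lower and none was higher, with Polr2k at 2.64, 17.1 and 16.2 CPM against 33.2, 161 and 228 (difference -3.55, SE 0.69, adjusted p = 0.013). The 10 became 0 in each of the same 3 fits. Of 21 repressors of the 2-cell programme, 6 rose and 5 fell in WT, among them Hdac1 (4.55) and Zfp57 (-3.59), and in arrested relative to het 2-cell embryos 0 were called, with 5 at an unadjusted p under 0.05 and 4 lower by DESeq2. Of 22 maternal oocyte transcripts 16 fell in WT and none rose, and in arrested relative to het 2-cell embryos 2 were higher, Plat (1.59, adjusted p = 0.032) and H1foo (4.62, adjusted p = 0.043). Relative to WT 1-cell embryos 12 of the 22 were lower in arrested embryos and none was higher. Over all lists, markers of other cells included, 0 of 130 genes tested were called between genotypes at either stage, with 11 at the 1-cell and 6 at the 2-cell stage at an unadjusted p under 0.05, and DESeq2 called 0 and 1.

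The labelled stages and possible other cells were checked with marker lists. Of 11 oocyte and egg markers, all of them also in the list of maternal transcripts, 9 fell in WT embryos and none rose. The granulosa marker Inha did not exceed 0.197 CPM in any embryo library, and the granulosa list (8 of 14 tested, 2 higher and 1 lower in WT 2-cell embryos) was at 27.4, 138 and 32.9 CPM in sum in arrested embryos against 34.8 to 44.9 in het 2-cell embryos. In arrested relative to WT 1-cell embryos 2 of the 8 were higher and none was lower. They were Tnfaip6 (log2 difference 12.2, adjusted p = 0.0028) and Amhr2 (10.7, adjusted p = 0.0087), and neither was called relative to het 2-cell embryos. Of the blood list, the 2 alpha-globin genes were tested and rose (Hba-a1 at 195, 276 and 199 CPM in WT 2-cell embryos and 4.24, 194 and 102 in arrested embryos), while the beta-globin genes, Ptprc and Alas2 did not exceed 1.94 CPM in any embryo library. Of the oviduct list 3 of 5 were tested and Epcam and Krt8 rose, while Foxj1 and Pax8 did not exceed 0.884 CPM and Ovgp1 5.85 CPM in any embryo library. Of the sperm list 4 of 7 were tested (1 higher, 1 lower in WT 2-cell relative to 1-cell embryos) and of the blastocyst list 6 of 8 (none called there). In arrested relative to het 2-cell embryos 1 gene of each of 3 lists was higher: the sperm gene Akap4 (adjusted p = 0.015), the granulosa gene Cyp19a1, which encodes aromatase (adjusted p = 0.026), and the blastocyst marker Pou5f1 (2.12, adjusted p = 0.038). Akap4 was at 0.942, 0.618 and 0.618 CPM in arrested embryos and had no count in het 2-cell embryos, against 2.88 to 5.39 CPM in 1-cell embryos. Cyp19a1 was at 19.5, 13.3 and 0 CPM against at most 0.197 in het 2-cell embryos and 42.1 to 64.3 in 1-cell embryos, so both genes were also present at the 1-cell stage. Their part in the results on arrested embryos was not tested.

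In GV oocytes, where the table was normalized separately from that of the embryos, 6 of the 42 genes had no count in any of the 8 libraries and 24 passed the expression filter. The Pramel pair had no count, the Trim43 sum was 2.97 to 7.46 CPM and the Zscan4 sum was 10.5 to 30.0 CPM. Arg2, Sp110, Tcstv1 and Tcstv3, the genes already present in 1-cell embryos, were also present here, with Arg2 at 617 and 784 CPM and Sp110 at 298 and 365 CPM in the WT transcriptome. In the translatome 1 of the 24 was higher in het oocytes (2.61% of all genes) and none was lower (2.01%), with a median difference of 0.43 against 0.04 for all genes. At an unadjusted p under 0.05 there were 3 of the 24 and 4781 of all 22409 genes. In the transcriptome 0 of the 24 were called (2.55% of all genes in either direction), with 2 of the 24 and 4390 of all genes at an unadjusted p under 0.05. DESeq2 called 1 of the 24 and 1428 of all genes there, and the median difference was -0.14 against -0.04.

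**Figure D4:**
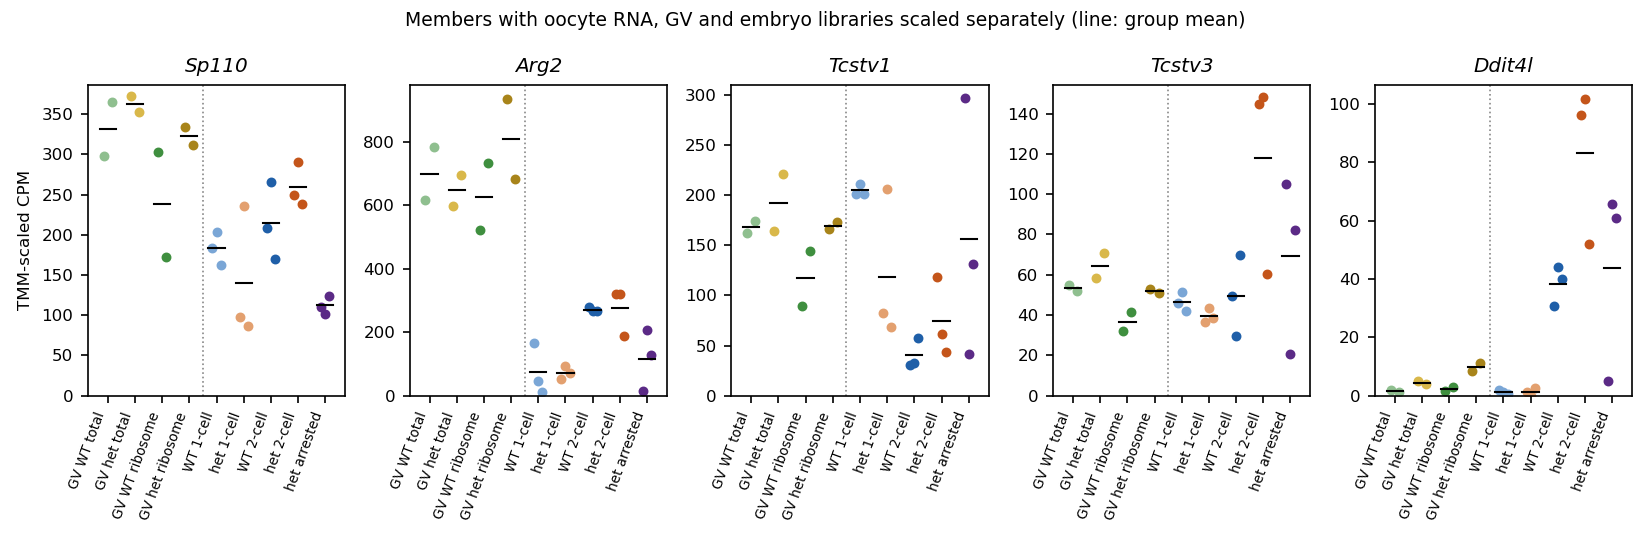
CPM (linear axes) of Sp110, Arg2, Tcstv1, Tcstv3 and Ddit4l in each of the 8 GV oocyte libraries and the 15 embryo libraries (points, with a line at each group mean), which were scaled separately and are divided by a dotted line. In GV oocytes the genotypes separate for Ddit4l, at 8.47 and 11.4 against 1.49 and 2.88 CPM in the ribosome-bound fraction, below the 30.6 to 44.0 CPM of WT 2-cell embryos.

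The gene called was Ddit4l. Its ribosome-bound mRNA was at 8.47 and 11.4 CPM in het oocytes against 1.49 and 2.88 in WT, a log2 difference of 2.22 (SE 0.43, adjusted p = 0.0145), with no overlap. Its total mRNA was at 5.0 and 3.99 CPM in het oocytes against 2.08 and 1.37 in WT, again without overlap, a difference of 1.35 that did not pass (SE 0.44, adjusted p = 0.113). Both fractions of an oocyte sample share a specimen number, so they are not separate observations. Whether the fractions differ from each other was not tested. With 2 libraries a group, the translatome call was lost without either het library or without WT library 1 (adjusted p of 0.0504 to 0.0943). Granulosa markers moved the same way: 4 of 13 tested were higher in het oocytes in each fraction and none was lower. Their summed level was 567 and 864 CPM in the het translatome against 153 and 329 in WT, and 308 and 202 against 81.3 and 159 in the transcriptome. Inha alone was at 454 and 741 CPM against 90.1 and 266 in the translatome, and the oviduct list was at 44.3 and 27.7 against 7.26 and 13.9 in sum. Of 3 oviduct genes tested, 1 was higher and none was lower in each fraction. Their median log2 difference was -0.45 in the translatome and 1.12 in the transcriptome, so the translatome sum does not describe most of them. The part of the granulosa and oviduct markers in the Ddit4l result was not tested. Of the 15 inducers, 1 was higher and 1 lower in the het translatome, and 0 and 2 in the transcriptome. Dppa4 was lower in both (-1.90, adjusted p = 0.0092, and -1.54, adjusted p = 0.034). In the translatome 1 of 21 repressors was higher and 2 were lower, and 1 and 1 of 17 other activated transcripts. Of 25 polymerase genes and 22 maternal transcripts 1 each was lower there. None of these other lists had a call in the transcriptome. Of all genes, 2.61% were higher and 2.01% lower in the translatome, and 1.41% and 1.14% in the transcriptome.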

How the data were processed

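The deposited files are 2 tables of raw counts (reads per gene, made by the authors), for 15 embryo libraries and 8 GV oocyte libraries. Per the submitters' processing notes, the tools were HISAT2 2.1.0, featureCounts 1.6.5 and Trim Galore 0.6.4, and the genome build was mm10. Neither the annotation release, the strand setting nor the treatment of reads that fit several places is given in the sources used here. Per the labels' protocols, cDNA was amplified with a full-length single-cell kit, ribosome-bound mRNA was captured with RiboLace, and no molecular identifiers are named, so amplified copies count as separate reads.

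From these counts, edgeR 4.0.16 (R 4.3.3) gave 1 fit per table with all of its groups: filterByExpr, TMM scaling and the quasi-likelihood F test, tested on simulated data, with no replicate term. Benjamini-Hochberg adjustment ran over the 23656 embryo or 22409 GV genes tested, and an adjusted p under 0.05 was a call. The standard error (SE) was derived from the F statistic. A group with no count was set to a floor of 3 counts, and 1 to 3 counts gave a ratio with a 95% exact counting interval. In all 10 comparisons were made, and since no label says that libraries are from separate animals, a p-value reflects only the spread of these libraries, which may be technical. The embryo comparisons share groups with each other.

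The 42 genes, the gene lists and the tests were chosen with earlier results of these data known. The lists hold inducers and co-activators, repressors, other activated transcripts, RNA polymerase II machinery, maternal transcripts, and markers of oocyte, granulosa, sperm, blood, oviduct and blastocyst. Of the blood list, 1 gene is not reported here. Values in every library are given for the 2 genes of each family, and the 6 others, with the highest mean CPM in 2-cell embryos, and for genes called between genotypes. From each list up to 4 called genes with the smallest p are named. Other genes were named after their values were seen. Coordinates and exon lengths are from GENCODE on mm10, and promoters from RefSeq. Alternatives were RLE scaling, library totals, no filter, DESeq2 1.42.0, family sums, fits on the compared groups alone, a replicate block and leaving out libraries. No further columns of sample values were present in the tables.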

Additional observations from a re-analysis of the deposited data

How the results depend on the processing

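Of the 42 genes, 0 were called between genotypes in embryos in every setting tried. Over all 23416 genes in its fit, DESeq2 called 78 between genotypes at the 1-cell stage and 121 at the 2-cell stage. Without het 1-cell library 2, 284 of all 25783 genes were called at the 1-cell stage. In that fit 143 were called in the difference between the rises. The counts that follow are again of the 42 unless all genes are named. With families summed to 1 entry each, 23 of 25 entries were called in WT and 22 in het 2-cell against 1-cell embryos, and 21 and 20 in arrested against het and WT 1-cell embryos. Fits on the compared groups alone gave 0 in arrested against het 1-cell embryos and 19 against WT 1-cell embryos. Without het 1-cell libraries 1 and 3 the counts were 19 in het 2-cell against 1-cell embryos and 7 in arrested against het 1-cell embryos. The single call in arrested against het 2-cell embryos became 2 with RLE, 3 with no filter, 5 with DESeq2 and 0 with families summed or on the compared groups alone. All genes had 2218, 1959 and 4988 calls in that comparison with RLE, no filter and DESeq2, against 1986 before these changes. Leaving out single libraries gave 0 to 5 calls there, with 5 without arrested library 2, 2 without het 2-cell library 1 and 0 without het 2-cell library 2 or 3. It gave 38 to 40 and 37 to 39 in the rise in WT and het, 28 to 37 and 31 to 37 in arrested against het and WT 1-cell embryos, and 0 to 1 in the GV translatome, with 0 without het or WT translatome library 1. The GV translatome count was 2 with no filter and 2 with DESeq2, and the transcriptome count 1 with DESeq2. Of all genes, 2113 of 37753 were called in the translatome with no filter. DESeq2 called 1908 of 22409 there and 1428 of 22409 in the transcriptome. The causes were not tested.

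Single genes that changed sign were never called. Over the fits that leave out 1 library, the difference between arrested and het 2-cell embryos ranged from -0.50 to 1.45 for Zscan4f, from -0.53 to 1.36 for Zscan4c and from -1.95 to 0.57 for Gm4340, with the lowest value of each without arrested library 2. For Gm4340 it was also -0.0633 with RLE, -0.0634 with DESeq2, -0.0661 with no filter, -0.48 with the replicate block and -0.45 without het 2-cell library 3. Zscan4f between genotypes at the 2-cell stage ranged from -0.032 without het library 1 to 1.58 without WT library 3.

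With the replicate number as a block, 39 genes were called in each genotype's rise, 0 in arrested against het 2-cell embryos, 32 and 34 in arrested against het and WT 1-cell embryos, 1 in the GV translatome and 0 elsewhere. No label says that embryo libraries with the same number share more than that number, but both fractions of a GV oocyte sample share a specimen number. The deviations of 30 embryo pairs with the same number from their group means correlated at -0.43 to 0.26 and those of 12 GV pairs at -0.43 to 0.26. Within each GV group the deviations of the libraries are equal with opposite sign, so the GV pairs are not separate observations.

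With library totals in place of TMM the median of all genes moved from 0.11 to 1.11 between genotypes at the 1-cell stage, from 0.36 to -0.50 in the het rise, from -0.09 to -1.20 in its difference from WT and from 0.28 to -0.72 in arrested against het 1-cell embryos. The median of the 42 genes was then 1.14, 6.45, -0.60 and 6.19.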
